A study of Mus musculus with 12 samples.

Results

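The enzymes described here carry methyl groups and folate-bound carbon units, and they are encoded by 8 genes: Mat2a, Mat2b, Ahcy and Mtr of the methionine cycle and Shmt1, Shmt2, Mthfd1 and Mthfd2 of the folate cycle. Every row under these names in the authors' deposited table was taken, which gave 108 exon parts of 138745 in all and 8 gene names of 15139. An exon part is a stretch of a gene that is counted as a unit. The genes were chosen by measured values, the changes of intronic polyadenylation parts in Mat2a and Shmt2 in the comparisons given below, so the values of the 8 genes are a description and carry no test beyond the adjusted p-values that the authors deposited.

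The cells were V6.5 mouse embryonic stem cells of C57Bl/6-129 background, with the genotype Cdk13-/-; Cdk13 Tg+. All of them lacked endogenous Cdk13, a cyclin K-dependent kinase of RNA polymerase II, and carried a Flag- and HA-tagged Cdk13 transgene that is on only in doxycycline. The 3 groups were cells kept in 1 µg/ml doxycycline, cells taken 48 h after its removal and cells taken 72 h after its removal, with 4 polyadenylated RNA libraries in each group, 2 from clone 11-8 and 2 from clone 14-1. Cells lacking the transgene were not taken off doxycycline in any library, so loss of Cdk13 and removal of the drug cannot be told apart. RNA integrity numbers lay between 8.9 and 9.3 in the 12 libraries. The 4 doxycycline libraries served as control for both times. Values per library are not used here and the depth is unknown, so no spread between replicates can be set beside the fold changes. The labels do not say whether the 2 libraries of a clone came from separate cultures, so the p-values may rest in part on technical spread. RNA was taken from whole cultures, where a change in every cell and a larger change in some cells cannot be told apart.

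The methionine cycle makes S-adenosylmethionine, the methyl donor for DNA, RNA, histones and small molecules, and regenerates methionine from homocysteine. The folate cycle takes a carbon unit from serine and passes it on for the synthesis of purines and thymidylate and for the remethylation of homocysteine. Mouse embryonic stem cells are known to depend on threonine as a source of such units. Mat2a, the gene of the catalytic subunit of the S-adenosylmethionine synthetase found outside the liver, is also known for a regulated last intron. In human cells the RNA methyltransferase METTL16 binds hairpins in the 3′ end of the MAT2A transcript, and splicing of the last intron rises when S-adenosylmethionine is scarce.

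The junctions of the last Mat2a intron and the METTL16-type sites behind it are shown because 2 of the 3 parts of the gene called higher at 72 h lie in that intron. The gene is on chromosome 6, minus strand, and the sequences are those of the GENCODE M21 transcripts (mouse build mm10), with 12 bases of exon and 18 of intron at each junction. At the 5′ junction the capitals mark an in-frame stop codon, at bases 2 to 4 of the intron, that ends the reading frame of the annotated transcript keeping this intron. At the 3′ junction they mark the last bases of the intron.
Mat2a exon 8 into the last intron: ggtcattgtcaggTAAagatggtaaaacct
Mat2a last intron into exon 9: tggacttgtatattccAGggatctggatct

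Exon 9 holds 6 copies of the motif TACAGAGAA or TACAGAAAA on the transcript strand, 5 of the first spelling and 1 of the second, and no copy on the opposite strand. The capitals below mark the motif, with 10 bases on either side, in the order from 5′ to 3′.
Mat2a site 1: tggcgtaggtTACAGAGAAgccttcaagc
Mat2a site 2: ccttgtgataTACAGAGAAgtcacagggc
Mat2a site 3: ctggtgtagcTACAGAGAAaccagcttcc
Mat2a site 4: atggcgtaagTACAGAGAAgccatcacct
Mat2a site 5: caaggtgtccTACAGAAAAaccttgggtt
Mat2a site 6: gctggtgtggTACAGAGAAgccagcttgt

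Site 1 began 40 bases after the stop codon of the fully spliced transcript, and sites 3 to 6 lay within part E001 of the table. The 585 bases of the last intron held no copy. Of 16400 protein-coding genes searched over the last 1597 bases of a transcript, which is the length of Mat2a exon 9, 4.34% held at least 1 copy on the transcript strand and 5.16% on the opposite strand. Only 14 genes held 2 or more copies, and Mat2a was the 1 gene with 6. The motif was chosen for its link to METTL16 and this gene, so the place of Mat2a in the count follows in part from that choice. Each of the 6 stretches as printed folded into a hairpin of 5 to 9 base pairs with at least 6 of the 9 motif bases unpaired (RNAfold). A match of letters is a description of the sequence and not a measured binding site.

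Across the 8 genes, few parts were called at 48 h and more at 72 h, and the called parts with a log2 fold change of at least 0.1 in size were all in Mat2a. At 48 h, 2 of 82 parts with an adjusted p were called at an adjusted p below 0.05, both higher and both in exons. Of the 82 parts, 81 lay in or over an exon, and only 1 of the 16 intron parts was tested. The place of the 48 h calls is thus no result, and the counts at the 2 times rest on different sets of parts. The authors' deposited table as a whole had 1.62% of parts called, 0.964% higher, and 0.898% higher among parts wholly in exons. At 72 h, 10 of 101 tested parts were called, 7 higher and 3 lower, against 3.60% of all parts called, 2.33% higher and 1.28% lower. The called parts at 72 h lay in 5 genes, with 4 in Mat2a, 3 in Mthfd1 and 1 each in Ahcy, Shmt2 and Mthfd2. No part was called at either time in Mat2b, Shmt1 or Mtr. A called part was present in 5 of the 8 genes at 72 h, where the share over all tested genes was 19.1%, and in 2 of 8 at 48 h, where it was 7.12%. Because values from these comparisons chose the group, nothing is read from the distance to these shares.

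**Figure D1:**
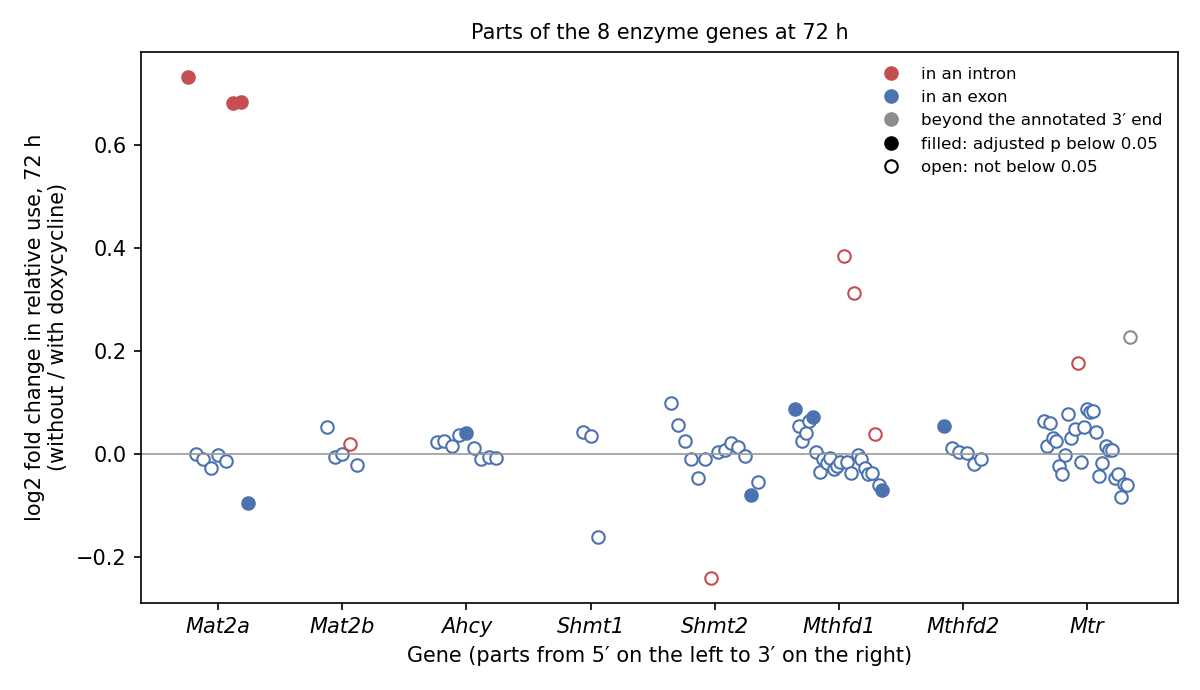
Log2 fold change in relative use at 72 h (vertical axis) of the 101 tested parts of the 8 genes (horizontal axis, parts of a gene from 5′ to 3′). Colours show whether a part lies in an intron, in an exon or beyond the 3′ end of the annotated transcript used. Markers are filled where the authors' adjusted p is below 0.05. The 3 filled intron parts of Mat2a stand at 0.68 to 0.73, while the parts in or over an exon of all 8 genes lie between -0.16 and 0.10.

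Of 4 intron parts of Mat2a, 3 rose at 72 h, and the fourth, the 53-base part E021 in intron 1, had no value at either time. Part E004, an unclassified stretch (chromosome 6, 72384390 to 72384531 on mm9), stood at a log2 fold change of 0.68 at 72 h (adjusted p = 5.9e-07) in the authors' deposited table, which is 1.61 times its relative use in doxycycline. Part E006, classed by the authors as intronic polyadenylation (72384734 to 72384965), stood at 0.68 (adjusted p = 7.6e-06) in the authors' deposited table. Part E022, classed as a first exon (72388796 to 72389339), stood at 0.73 (adjusted p = 0.013) in the authors' deposited table. All 3 values are close to each other and above those of the 6 other tested parts of the gene.

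Laid on the annotated exons of Mat2a by their distances within the gene, these 3 parts contained no base of an exon of the 9-exon reference transcript. In that layout 14 of the 20 part ends of Mat2a fell on annotated exon ends. E006 covered bases 10 to 241 of the 585-base last intron, and E004 covered bases 444 to 585, up to the 3′ splice site printed above. E022 covered the 544 bases of intron 1 that follow exon 1, so its class as a first exon and its place differ. Such a difference was common. Over all genes laid on the annotation in this way, 1942 of 8541 parts of that class lay wholly in an intron of the reference transcript. An annotated Mat2a transcript keeps the whole last intron, and another keeps the stretch of intron 1 that E022 covers. No part of Mat2a is classed as a detained intron, meaning an intron kept in otherwise spliced and polyadenylated RNA, in the authors' deposited table. Whether the RNA that holds E006 ends within the intron or runs through it is not measured by these values.

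The exon parts of Mat2a stayed near 0 in the same libraries. At 72 h the 5 tested parts wholly in exons 3 to 7 lay between -0.03 and 0.00079, none with an adjusted p below 0.05, in the authors' deposited table. The exon 7 part E010, classed as a cassette exon, was among them, at -0.01 (adjusted p = 0.81) in the authors' deposited table. The terminal exon part E001 (72382779 to 72383316), which holds sites 3 to 6, fell by 0.09 (adjusted p = 0.043) in the authors' deposited table. That adjusted p was nearest to the threshold among the called parts of the 8 genes. Each value is relative to the other parts of the gene, so exon values close to 0 are no independent background for the intron parts. The drawing of Mat2a by distance shows both kinds of part.

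**Figure D2:**
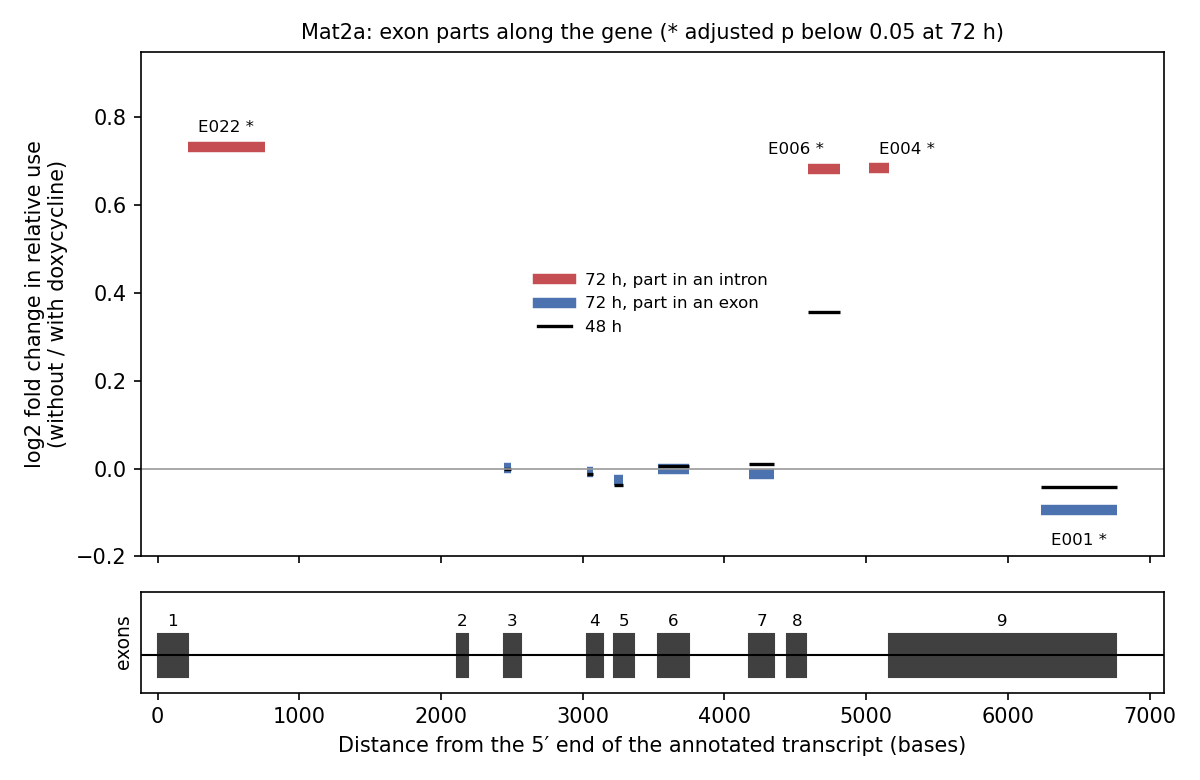
Log2 fold change in relative use of the Mat2a parts (vertical axis) by distance from the 5′ end of the annotated transcript in bases (horizontal axis), with exons 1 to 9 as boxes below. Coloured bars are 72 h, thin black bars 48 h, and stars mark an adjusted p below 0.05 at 72 h; the 3 intron parts lie at 0.68 to 0.73 and the exon parts between -0.09 and 0.00079.

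At 48 h, E006 was the only intron part of Mat2a with a value, 0.36, and it was not called (adjusted p = 0.52) in the authors' deposited table. E004 and E022 had no adjusted p at 48 h and are counted as not tested. The terminal part E001 stood at -0.04 at 48 h (adjusted p = 0.72) in the authors' deposited table. Whether the values at 72 h differ from those at 48 h was not tested.

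Among all genes, the Mat2a intron parts were near the top of the 72 h values. Over 10259 genes whose parts could be laid on the annotation in the same way, 8550 tested parts lay wholly in an intron of the reference transcript, with a median log2 fold change of 0.11 (quartiles -0.06 and 0.28), and 7.93% of them were called higher and 1.16% lower. The 78162 tested parts wholly in an exon had a median of 0.0076, with 1.74% called higher and 0.766% called lower. Of the intron parts with a fold change, 98.6% lay below Mat2a E022, 97.9% below E004 and 97.8% below E006. A gene with 3 or more intron parts called higher, as Mat2a is, occurred 25 times among 4354 genes with a tested intron part, and 536 of these genes had at least 1. The 4354 include genes with fewer than 3 tested intron parts, and E004 and E006 lie in the same intron, so the 25 does not measure rarity. Intron parts as a group stood above exon parts at 72 h, with Mat2a in their upper tail. Mat2a was chosen by a value of these comparisons, so its ranks are a description and no test.

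**Figure D3:**
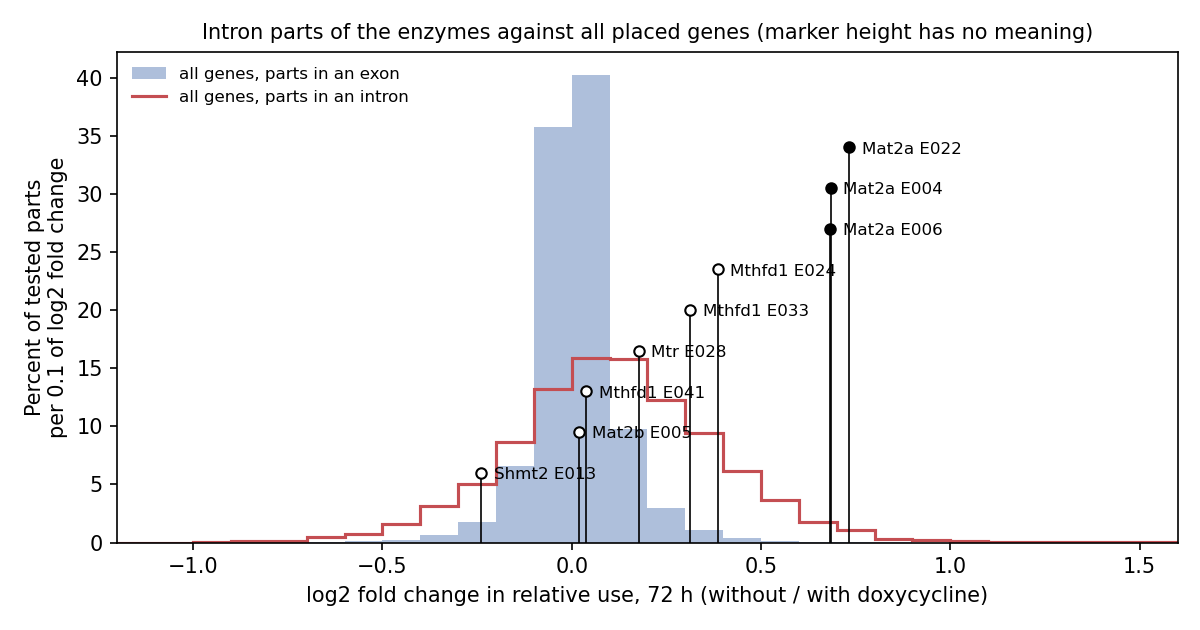
Distribution of log2 fold changes in relative use at 72 h (horizontal axis) over all placed genes, as the percent of tested parts per 0.1 of log2 fold change (vertical axis), for parts wholly in an exon (filled) and wholly in an intron (line). Markers show the 9 tested intron parts of the enzymes, filled where the adjusted p is below 0.05; the 3 Mat2a parts stand beyond 0.6 and the other 6 are open, between -0.24 and 0.39.

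Mat2b encodes the regulatory subunit that binds the Mat2a enzyme. Its 5 parts lay between -0.02 and 0.05 at 72 h in the authors' deposited table, and none was called. Its intronic polyadenylation part E005 (chromosome 11, 40495251 to 40495330), in intron 5, stood at 0.02 (adjusted p = 0.97) in the authors' deposited table. The first exon E010 stood at 0.06 at 48 h and 0.05 at 72 h in the authors' deposited table, with adjusted p-values of 0.42 and 0.54. The partner gene thus had an intronic polyadenylation part with a value near 0, and the difference from Mat2a was not tested.

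Ahcy encodes adenosylhomocysteinase, which clears the product of methylation reactions. Its exon 5 part E009 (chromosome 2, 154890550 to 154890662) was called at both times, at 0.04 (adjusted p = 0.026) at 48 h and at 0.04 (adjusted p = 0.018) at 72 h in the authors' deposited table. This is 1.03 times the use in doxycycline at each time. The other 8 parts of Ahcy lay between -0.01 and 0.04 at 72 h in the authors' deposited table. Mtr encodes methionine synthase, which joins both cycles by moving the methyl group of folate to homocysteine. None of its 29 tested parts was called at 72 h, and none of 18 at 48 h. Its intronic polyadenylation part E028 (chromosome 13, 12322480 to 12323211), the first 732 bases of intron 14, stood at 0.18 (adjusted p = 0.84) in the authors' deposited table. Its terminal part E001 stood at 0.23 (adjusted p = 0.60) in the authors' deposited table. That part lay beyond the 3′ end of the annotated transcript on which Mtr was laid.

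The serine hydroxymethyltransferases, which take the carbon unit from serine, are cytosolic in the case of Shmt1 and mostly mitochondrial in the case of Shmt2. In Shmt2 the part E002 (chromosome 10, 126954357 to 126954664) fell at 72 h, by 0.08 (adjusted p = 1.2e-04), and stood at -0.02 (adjusted p = 0.72) at 48 h, in the authors' deposited table. Its use was then 0.947 times that in doxycycline. The authors classed E002 as intronic polyadenylation, but laid on the annotation it lay wholly inside exon 12, the last exon, from base 181 to base 488 after the stop codon. The value of E002 is therefore given here as that of a stretch of the 3′ untranslated region. Among placed genes, 212 of 3478 parts of this class lay wholly in an exon of the reference transcript and 3115 wholly in an intron. The 195 exon-placed parts of this class tested at 72 h had a median of -0.04, and the 1271 intron-placed ones a median of 0.05. The called members of that class in Mat2a and Shmt2 thus lay in different kinds of place and moved in opposite directions. Over all tested parts of the class, 3.84% were called higher and 2.90% lower at 72 h.

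The last part of Shmt2, the terminal part E001, lay 3′ of E002 and stood at -0.05 (adjusted p = 0.72) at 72 h in the authors' deposited table. Its first exon E019 stood at 0.10 (adjusted p = 0.13) and exon 2 part E018 at 0.06 (adjusted p = 0.11) in the authors' deposited table. Part E013, 28 bases at the end of intron 6, had the lowest value of all 8 genes, -0.24 (adjusted p = 0.75) in the authors' deposited table. Shmt1 had only 3 parts in the table, all at its 3′ end, and none was called. Its exon 10 and exon 11 parts stood at 0.04 at 72 h, and its terminal part E001 stood at -0.16 (adjusted p = 0.57), in the authors' deposited table.

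Mthfd1 encodes the cytosolic enzyme with synthetase, cyclohydrolase and dehydrogenase activities that interconverts folate-bound carbon units. The first exon E001 (chromosome 12, 77356220 to 77356531) rose by 0.09 at 72 h (adjusted p = 0.0084) in the authors' deposited table. The exon 7 part E011 (77383875 to 77384011) rose at both times, by 0.07 (adjusted p = 0.025) at 48 h and by 0.07 (adjusted p = 4.3e-04) at 72 h, in the authors' deposited table. The terminal exon E043 (77420568 to 77420812) fell by 0.07 at 72 h (adjusted p = 0.011) in the authors' deposited table. Higher parts thus lay toward the 5′ end of Mthfd1 and the lower part at its 3′ end.

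Mthfd1 also held the only parts of the 8 genes that the authors classed as detained introns, and neither was called. E033, intron 21 (77404969 to 77408207), stood at 0.31 (adjusted p = 0.11) at 72 h, and E041, intron 26 (77416089 to 77418592), at 0.04 (adjusted p = 0.90), in the authors' deposited table. The part E024, 123 bases at the start of intron 17 that the authors classed as an alternative 5′ splice site, stood at 0.39 (adjusted p = 0.36) in the authors' deposited table. At 48 h these 3 parts had no value. Across all genes, 14.8% of tested detained introns were called higher at 72 h.

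Mthfd2, a mitochondrial dehydrogenase and cyclohydrolase of the folate cycle, had 1 called part among 6. Its first exon E012 (chromosome 6, 83267423 to 83267598) rose by 0.05 at 72 h (adjusted p = 0.0011), and stood at 0.03 (adjusted p = 0.61) at 48 h, in the authors' deposited table. Its other 5 parts lay between -0.02 and 0.01 at 72 h in the authors' deposited table. Parts classed as first exons, wherever they lay, were called higher at 72 h in 5.33% of those tested in all genes. Parts classed as terminal exons were called lower in 8.22%. In the enzymes, 3 of 6 parts classed as first exons were called higher, of which Mat2a E022 lies in an intron, and 2 of 5 terminal parts were called lower.

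By place, the 8 genes had 9 tested intron parts at 72 h, and 8 of these had a positive value, the called Mat2a parts included. Intron parts over all genes had a median of 0.11 (quartiles -0.06 and 0.28), and 7.93% were called higher and 1.16% lower. The 6 intron parts of the enzymes outside Mat2a ranged from -0.24 to 0.39 with a median of 0.11 and none was called. The 91 parts in or over an exon had a median of -0.00066, with 44 positive and 47 negative. Of the exon parts, 4 were called higher and 3 lower, and the size of each called value was at most 0.09. Among the 86 that lay wholly in an exon, 3 were called higher and 1 lower. Over all genes, 1.74% of parts wholly in an exon were called higher and 0.766% lower. The genes were chosen by values of these comparisons, so nothing is read from the distance to these shares.

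Along the genes, exon parts tended from higher values at the 5′ end to lower values at the 3′ end in each of the 6 genes with at least 5 tested exon parts. Spearman's rho between the order of the exon parts and their log2 fold change at 72 h was -0.94 in Mthfd2 (6 parts), -0.82 in Mthfd1 (23 parts), -0.71 in Mat2a (6 parts), -0.67 in Ahcy (9 parts), -0.60 in Shmt2 (13 parts) and -0.53 in Mtr (27 parts). At 48 h it was -0.83 in Ahcy and -0.67 in Mthfd1, and between -0.09 and -0.54 in the other 4 genes. Parts of a gene share its libraries and its total, so these are descriptions with no p. Over all parts, introns included, rho at 72 h lay between -0.94 and -0.32 in these 6 genes. The median of the same measure over 7838 genes was -0.31 and 74.1% were negative, so a fall along the gene was common in the whole table. At 48 h the all-parts rho lay between -0.83 in Ahcy and 0.11 in Mat2a. Its median over 3374 genes was -0.46 at that time, and 81.6% were negative. In Mthfd1 all 5 exon parts from the 5′ end through exon 6, and the called exon 7 part after them, had positive values at both times in the authors' deposited table. When the parts of each gene were divided at the middle of their order, the 5′ minus 3′ difference of medians had a median over the 8 genes of 0.03 at 48 h and 0.02 at 72 h. Over all genes it was 0.03 and 0.04. On this measure, which includes intron parts, Mat2a (-0.02 at 48 h and -0.0028 at 72 h) and Shmt2 (-0.0095 and -0.01) were negative at both times and the other 6 genes positive.

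**Figure D4:**
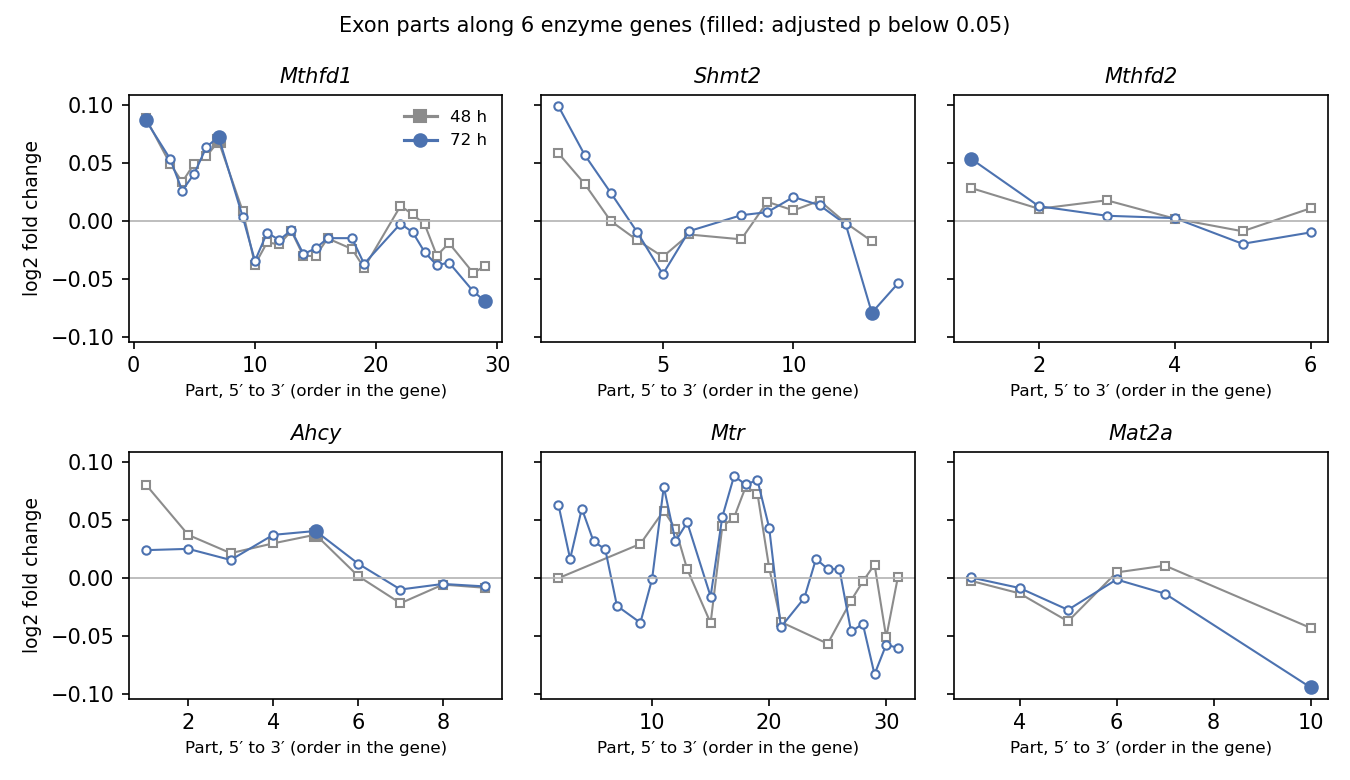
Log2 fold change in relative use (vertical axis) of parts in or over an exon, by their order from 5′ to 3′ (horizontal axis), for 6 enzyme genes at 48 h (grey squares) and 72 h (blue circles), filled where the authors' adjusted p is below 0.05. Mthfd1 runs from 0.09 at its first exon to -0.07 at its terminal exon at 72 h, and Mtr shows no called part.

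In the genes around the enzymes, called exon parts had mostly small values and the few called intron parts larger ones. Only called parts are compared here, and a part measured with low precision is called only where its value is large. No difference between exons and introns is therefore read from these sizes. The lists held 65 further genes of methionine salvage, folate, serine, transsulfuration, polyamine and purine metabolism and of the RNA methylation factors around Mat2a, of which 58 were in the table by symbol. At 72 h, 15 of 54 tested genes had a called part, 27.8% (10 with a higher, 6 with a lower part), against 19.1% of all tested genes. At 48 h it was 5 of 46, 10.9% (4 with a higher, 2 with a lower part), against 7.12%. The lists were chosen with earlier results of these data known, so nothing is read from the distance to these shares, here or list by list. The median over the 516 tested parts of the listed genes at 72 h was 0.0040. Of the 21 called parts, 19 were in genes that could be laid on the annotation, and those of Adi1 and Gcsh were not. Called parts wholly in an exon, 15 in 9 genes, had a median absolute value of 0.04, and the 3 called intron parts, in 3 genes, all rose, by 0.26 to 0.58. The remaining part, the first exon of Oaz1, ran past its annotated exon.

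In methionine cycle and salvage outside the 8 enzymes, 1 of 7 tested genes (14.3%) was called at 72 h, near the 19.1% of all tested genes. It was Adi1, a dioxygenase of the salvage pathway, whose terminal exon E009 fell by 0.10 (adjusted p = 4.8e-04) in the authors' deposited table. In the folate list, 3 of 19 (15.8%) were called, 2 higher and 1 lower, also near that share. The intron 2 part E014 of Tyms (chromosome 5, 30396496 to 30397849), the gene of thymidylate synthase, rose by 0.58 (adjusted p = 0.036) in the authors' deposited table. For Gldc and Gcsh, subunits of the glycine cleavage system, exon 19 part E009 of Gldc rose by 0.04 (adjusted p = 0.035) and the terminal exon E001 of Gcsh fell by 0.03 (adjusted p = 0.039) in the authors' deposited table. At 48 h neither list had a called gene, of 6 and 12 tested, where the share over all tested genes was 7.12%.

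Among 5 tested genes of serine synthesis and transport, 4 (80%) were called at 72 h, 3 higher and 1 lower, against 19.1% of all tested genes. At 48 h it was 1 of 5 (20%), against 7.12%. The detained intron E018 of Sfxn1 (chromosome 13, 54192822 to 54200169), the mitochondrial serine carrier, rose by 0.26 (adjusted p = 0.0093) in the authors' deposited table. An intron 1 part of the amino acid transporter gene Slc1a5, E001, rose by 0.49 (adjusted p = 0.014) in the authors' deposited table. Exon 9 of Phgdh, which starts serine synthesis, fell by 0.03 (adjusted p = 0.014) in the authors' deposited table. The fourth gene, named after its values were seen, was Psat1, the aminotransferase of serine synthesis, which was also the 1 called at 48 h. Its first exon E019 rose by 0.05 at 48 h (adjusted p = 3.4e-04) and by 0.04 at 72 h (adjusted p = 0.024) in the authors' deposited table. The exon 2 part E017 of Psat1 rose by 0.04 at 48 h (adjusted p = 9.2e-05) in the authors' deposited table. At 72 h E017 stood at 0.03 and was not called (adjusted p = 0.15) in the authors' deposited table. Among its called parts, the list held 2 intron rises of 0.26 and 0.49 and exon values of at most 0.05 in size.

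In purine synthesis, which uses formyl groups from folate, 5 of 9 genes (55.6%) were called at 72 h, 4 higher and 1 lower, against 19.1% of all tested genes. At 48 h it was 3 of 9 (33.3%), against 7.12%. The exon 1 part E004 of Paics rose by 0.08 (adjusted p = 3.3e-08) at 72 h, after a rise of 0.06 (adjusted p = 8.3e-05) at 48 h, in the authors' deposited table. The first exon E020 of Impdh1 rose by 0.31 (adjusted p = 6.7e-05) in the authors' deposited table, the highest exon value among the called parts of these lists. A 6-base part of Gart, E032, in exon 6, rose by 0.05 (adjusted p = 0.0017) in the authors' deposited table. The other 2 genes, Atic with a higher part and Impdh2 with a lower one, were named after their values were seen, and Gart and Impdh2 were called beside Paics at 48 h. At that time Paics had higher parts, Impdh2 a lower part and Gart both. Of the Gart parts, picked after their values were seen, exon 20 part E007 fell by 0.05 (adjusted p = 0.027) and exon 17 part E011 rose by 0.05 (adjusted p = 0.049) at 48 h in the authors' deposited table. In polyamine synthesis, which consumes S-adenosylmethionine, 2 of 7 genes (28.6%) were called at 72 h, against 19.1% of all tested genes. At 48 h it was 1 of 7 (14.3%), Odc1, against 7.12%. Odc1 had parts in both directions at 72 h. The 9-base part E008 in exon 4 of Odc1, named after its values were seen, rose by 0.04 at 48 h (adjusted p = 0.038) and by 0.04 at 72 h (adjusted p = 0.043) in the authors' deposited table. A 6-base part of exon 10 of Odc1, E016, fell by 0.06 (adjusted p = 9.7e-05), and the first exon of Oaz1, the antizyme gene, fell by 0.02 (adjusted p = 0.012), in the authors' deposited table. Neither of the 2 transsulfuration genes, Cbs and Cth, was called at either time.

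None of the 5 RNA methylation genes, Mettl16, Mettl3, Mettl14, Wtap and Ythdc1, had a called part at either time. The 10 tested parts of Mettl16, the gene of the methyltransferase that binds the human MAT2A hairpins, ranged from -0.05 to 0.41 at 72 h (lowest adjusted p = 0.28) in the authors' deposited table. The highest was the intron 8 part E022 of Mettl16, 0.41 (adjusted p = 0.46) in the authors' deposited table. These values are relative to each gene's other parts and do not give the amount of Mettl16 RNA.

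**Figure D5:**
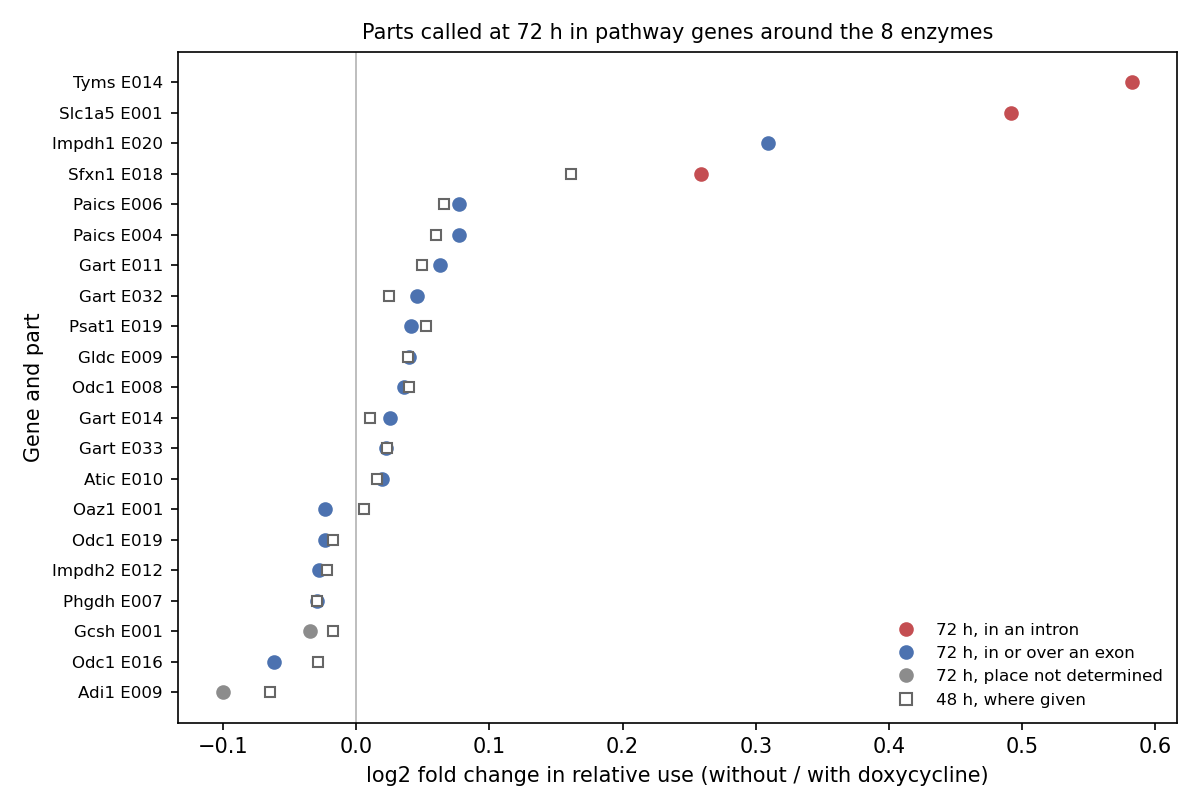
Log2 fold change in relative use (horizontal axis) of the 21 parts called at 72 h in pathway genes around the 8 enzymes (vertical axis, gene and part), as circles coloured by place, with the 48 h value as an open square where there is one. The intron parts of Tyms (0.58), Slc1a5 (0.49) and Sfxn1 (0.26) and the first exon of Impdh1 (0.31) stand apart from the other parts, which lie between -0.10 and 0.08.

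Of 8 embryonic stem cell marker genes, 6 (Dppa5a, Nanog, Pou5f1, Tdgf1, Utf1 and Zfp42) had a part with an adjusted p at both times. Sox2 and Esrrb had none, and only 7 of the 8 genes were in the authors' deposited table at all. For 4 liver markers, of which 2 were in that table, the number was 0 at 48 h and 1 (Apoa1) at 72 h. For 4 fibroblast markers it was 2 and 4, and for 3 primitive endoderm markers 0 and 2. Having an adjusted p is no measure of the amount of RNA, so the cell type could not be checked further.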

How the data were processed

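Polyadenylated RNA was sequenced from 12 stranded libraries of 3 groups, per the labels' protocols. The submitters' processing notes name STAR 2.4.1d and mm9. The authors quantified exon parts with DEXSeq and deposited, for each time, FDR-adjusted p-values and log2 fold changes, per the file headers; counting, annotation, DEXSeq version and model terms were not given in the sources used here. DEXSeq sets a part against the other parts of its gene, so values are read as relative use. No count per library is used, so depth and precision are unknown, and duplicates cannot be compared.

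A part was called at an adjusted p below 0.05, as in the authors' own column. Gene names were taken from part identifiers. Coordinates are those of the table (mm9). To find exons and introns, parts were laid on 1 GENCODE M21 transcript a gene by the single offset that matched most part and exon ends, used only for distances within the gene. Genes needed at least 4 matched ends and 50% of all ends; 10259 of 15139 passed. An intron of that transcript can be an exon of another. Layout and order statistics were tested on simulated data. Python 3.11.15, pandas 2.3.3, scipy 1.17.1 and RNAfold 2.7.2 were used.

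The members and lists were chosen with earlier results of these data known. Named were all 8 enzymes, per list up to 3 other genes of lowest adjusted p among called parts at 72 h, and Mettl16. Of 73 list entries, 66 matched by symbol. Alternatives were other thresholds on p, a minimum fold change, parts tested at both times, and other choices of parts.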

Additional observations from a re-analysis of the deposited data

How the results depend on the processing

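With an adjusted p below 0.01, the called parts of the 8 enzymes numbered 0 at 48 h and 6 at 72 h, and the called genes of the surrounding lists 2 at 48 h and 7 at 72 h. With a minimum absolute log2 fold change of 0.1, the enzymes kept 0 parts at 48 h and 3 at 72 h, the 3 intron parts of Mat2a. At an adjusted p below 0.1 the counts were 2 and 12 parts and 5 and 20 genes, and with parts tested at both times they were 8 parts and 12 genes at 72 h. The 5′ minus 3′ difference stayed positive with unclassified parts only, at 0.03 and 0.02. No paired analysis was possible because the table gives comparisons and no values per library, and leaving out each replicate was not run for the same reason. The unknown depth limits what a part without a call shows.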
